A study of Homo sapiens with 3 samples.

Results

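The genes described here are FGFBP1, the receptors FGFR1, FGFR2 and FGFR3, the fibroblast growth factors FGF2 and FGF19, and the platelet-derived growth factors PDGFA, PDGFB and PDGFC. They are 9 of 52992 genes measured, chosen by name as growth factor genes linked to KLF5 in epithelium and smooth muscle. These genes, and the lists of genes set beside them below, were chosen with earlier results of these data known. Counts over them thus describe the lists and do not test them. RNA was measured in TE5, a line grown from a human esophageal squamous cell carcinoma. The shKLF5 group was TE5 transfected with a short hairpin RNA against KLF5, and the scramble group was TE5 transfected with a scrambled control. Both were harvested 48 h later, with 2 libraries for shKLF5 and 1 for scramble. The labels call the shKLF5 libraries 1 and 2 and do not tell whether these were different hairpins or different cultures. P-values hence rest on the distance between those 2 libraries, which may be technical, and on spread borrowed across all genes (1 residual and 6.86 prior degrees of freedom). Scramble, with no replicate, is given the same spread.

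Fibroblast growth factors (FGFs) bind tyrosine kinase receptors together with heparan sulphate, a sugar chain of the cell surface and matrix. FGFR1, FGFR2 and FGFR3 each carry 1 of 2 alternative exons in the third immunoglobulin (Ig) domain, called IIIb and IIIc, which set the ligands they accept. Epithelia typically make IIIb forms, of which that of FGFR2 receives FGF7 and FGF10 from the stroma. Mesenchymal cells typically make IIIc forms. FGFBP1 is a secreted carrier that frees FGFs from heparan sulphate. Platelet-derived growth factors (PDGFs) act on receptors of fibroblasts and smooth muscle, so epithelial cells that make them signal mainly to their neighbours. In rodent smooth muscle, KLF5 is known to act on the PDGFA gene, and FGFBP1 has been described as a KLF5 target in human carcinoma cells.

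The receptor forms are told apart by their alternative exons, shown here for FGFR3, the receptor most reduced by value, from the GENCODE 29 transcripts (GRCh38). Capitals mark the bases that are the same in the IIIb and IIIc exons after alignment. The FGFR3 exons lie on the plus strand at chr4:1802914-1803064 (IIIb) and chr4:1803692-1803836 (IIIc).
FGFR3 IIIb: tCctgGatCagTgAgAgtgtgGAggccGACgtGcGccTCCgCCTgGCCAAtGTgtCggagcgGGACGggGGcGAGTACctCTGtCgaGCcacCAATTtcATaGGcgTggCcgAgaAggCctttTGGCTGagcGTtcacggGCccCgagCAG
FGFR3 IIIc: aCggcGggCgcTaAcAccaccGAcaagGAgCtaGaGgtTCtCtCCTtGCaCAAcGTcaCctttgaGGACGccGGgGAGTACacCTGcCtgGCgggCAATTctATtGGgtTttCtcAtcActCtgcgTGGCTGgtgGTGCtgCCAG
Of 142 aligned bases, 74 (52.1%) were the same in IIIb and IIIc. Reads that cover these exons can thus tell the exons apart, while reads from elsewhere in a receptor cannot. A read within 1 exon also fits a transcript annotated with both exons, as FGFR3-201 is. The deposited counts divide reads that fit several transcripts among them by estimate.

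The libraries held 33544752 and 32720563 estimated counts in shKLF5 libraries 1 and 2, and 33448976 in scramble. Genes with 10 or more counts numbered 19304 and 19422 in shKLF5 libraries 1 and 2, against 16920 in scramble. The part of this difference in the values of genes with few counts was not tested. KLF5 itself, the hairpin target, had 1333 and 1531 counts in shKLF5 libraries 1 and 2, against 8402 in scramble. Its log2 fold change was -2.96 (SE 0.34), with an adjusted p of 0.182 by edgeR's quasi-likelihood test and 1.47e-06 by DESeq2. Of 9 squamous markers, each had a lower value in shKLF5 libraries 1 and 2 than in scramble, against 36.5% of all genes tested. Their summed level was 2251 and 1244 CPM (counts scaled to a common library size, here with TMM factors), against 9534 in scramble. With library size alone as the scale, 8 of them were lower in both. Markers of fibroblasts summed to 76.7 and 46.9 CPM, against 68.2 in scramble. Those of smooth muscle summed to 5.88 and 7.62 CPM, against 5.88, those of endothelium to 7.52 and 10.4, against 3.35, and those of leukocytes to 9.83 and 13.2, against 5. Of the tested markers 3 of 7 for fibroblasts and 3 of 4 for smooth muscle were higher by value in both shKLF5 libraries. So were 3 of 3 for endothelium and 4 of 5 for leukocytes, against 37.9% of all genes tested. VWF alone had 6.61 and 9.81 CPM of the endothelial sum in shKLF5, and 3.27 CPM in scramble. PECAM1, also on that list, had no value. None of the markers with a value was at 0 in a shKLF5 library. In scramble the endothelial CDH5 and KDR and the leukocyte gene CD3E were at 0. The part that these shifts have in the values of the 9 genes was not tested. The samples were of a single cultured line, TE5, and not of a tissue. In its bulk RNA, fewer cells that express a marker and less of its RNA per cell cannot be told apart.

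All 9 genes were detected and passed the filter on low counts. On the TPM scale, which corrects for transcript length, PDGFA was the highest in each library, with 38.9 and 24.5 TPM in shKLF5 and 37.5 TPM in scramble. FGFR2 came next in shKLF5 library 1 (28.4 TPM) and in scramble (24.0 TPM), while 4 of the 9 genes stood above it in shKLF5 library 2 (9.75 TPM). PDGFC had 24.9 and 22.5 TPM in shKLF5, against 19.0 in scramble, and FGFR1 24.1 and 16.7, against 14.3. Over the shKLF5 libraries PDGFC averaged 23.7 ± 1.67, FGFR1 20.4 ± 5.22 and FGFR2 19.1 ± 13.2 TPM (SD, n = 2), so these neighbours in the order did not differ beyond their spread. PDGFB (12.7 ± 8.07 TPM), FGF2 (10.2 ± 5.78), FGFBP1 (7.75 ± 5.90) and FGFR3 (6.05 ± 4.67) also lay within each other's spread. FGF19 was the lowest in scramble, at 0.438 TPM, and in shKLF5 library 1, at 0.147 TPM.

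**Figure D1:**
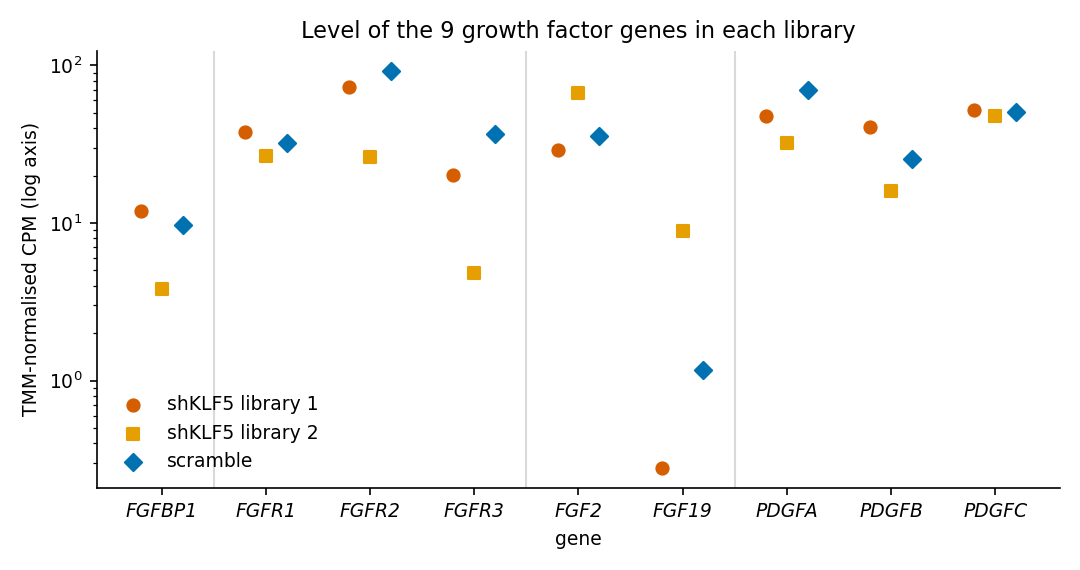
TMM-normalised CPM on a log axis for each of the 9 genes, 1 point for each library, with carrier, receptors, FGFs and PDGFs separated by grey lines. FGFR2, FGFR3 and PDGFA have both shKLF5 points under the scramble point, and FGF19 runs from 0.279 to 8.86 CPM between the shKLF5 libraries.

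Against scramble, 3 of the 9 genes were lower in both shKLF5 libraries after TMM scaling, 0 were higher in both, and in 6 the libraries lay on opposite sides. Over all 20629 genes tested, 36.5% were lower in both, 37.9% higher in both, and 25.4% lay on opposite sides. The 3 genes were FGFR2, FGFR3 and PDGFA. This count rests on the scale: with library size alone FGFR3 and PDGFA were lower in both, and on the TPM scale FGFR3 was the only one. On either of these scales FGFR1, FGF2 and PDGFC were higher in both. The median log2 fold change of all genes was 0.04 after TMM scaling, 0.47 with library size alone and 0.26 on log2(TPM + 1). With edgeR's quasi-likelihood test, 0 of the 9 genes passed at a Benjamini-Hochberg adjusted p under 0.05 and 0 at an unadjusted p under 0.05, where FGFR3 alone came under it in some alternatives. Over all genes tested 0 passed adjusted (0%), while 1893 (9.18%) had an unadjusted p under 0.05, and DESeq2 called 118 (0.687%) and edgeR's legacy fit 21 (0.102%), none of them among the 9.

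FGFR3 (ENSG00000068078; GRCh38 chromosome 4, 1793293 to 1808872), a receptor whose activating mutations are known from bladder cancer, was the most reduced by value. It had 719 and 167 counts in shKLF5 libraries 1 and 2, against 979 in scramble, or 20.1 and 4.80 CPM, against 36.8. Both shKLF5 values lay under the scramble value, and library 2 was 4.18-fold under library 1. On the log2 scale FGFR3 differed by -1.57 (SE 0.69), with a confidence interval (CI) at 95% of -3.17 to 0.04. Its unadjusted p was 0.0543 and its adjusted p 0.55 with edgeR's quasi-likelihood test, with adjusted values between 0.43 and 0.67 under the alternatives. Its unadjusted p was under 0.05 by DESeq2 (0.0265), edgeR's legacy fit (0.0257) and with median-ratio size factors (0.048). FGFR3 was lower in both libraries under each of the scalings run.

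FGFR2 (ENSG00000066468, chromosome 10, 121478334 to 121598458), whose IIIb form receives stromal FGFs in epithelia, had 2619 and 912 counts in shKLF5, against 2462 in scramble. In CPM these were 73.1 and 26.2, against 92.6. Library 2 was low, while library 1 was near scramble and changed sides with the scale. FGFR2 had a log2 fold change of -0.90 (SE 0.55, 95% CI -2.17 to 0.38), at -0.34 in library 1 and -1.82 in library 2. On the scale of log2(TPM + 1), FGFR2 in library 1 stood at 0.23.

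FGFR1 (ENSG00000077782; chromosome 8, 38400215 to 38468834), the main FGF receptor of mesenchymal cells, had 1359 and 925 counts in shKLF5, against 855 in scramble. After TMM scaling these were 37.9 and 26.6 CPM, against 32.2. The scramble value lay between the shKLF5 values. Fitted over both libraries, the log2 fold change was 0.0047 (SE 0.40), with a 95% CI of -0.93 to 0.94. Its exons share 156 bases (1.13% of its exon bases) with the antisense gene AC087623.1, which had 11 and 12 counts in shKLF5, against 1 in scramble. They share 138 bases (0.997%) with LETM2, also on the opposite strand, which had 94 and 214 counts in shKLF5, against 81 in scramble.

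The FGF carrier FGFBP1 (ENSG00000137440; chromosome 4, 15935569 to 15938740) went opposite ways in the shKLF5 libraries. It had 425 and 133 counts in shKLF5 libraries 1 and 2, against 259 in scramble, or 11.9 and 3.83 CPM, against 9.74. The scramble value lay between them: library 1 was 1.22-fold above it, and scramble was 2.55-fold above library 2. Its fitted log2 fold change was -0.31 (SE 0.65, 95% CI -1.83 to 1.20). The exact Poisson intervals of the raw counts were 386 to 467 and 111 to 158 in shKLF5 libraries 1 and 2, and 228 to 293 in scramble. Such intervals cover counting error only, since reads are not independent molecules, and do not include the scaling between libraries.

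FGF2 (ENSG00000138685; chromosome 4, 122826708 to 122898236), a heparin-binding FGF that lacks a classical secretion signal, was high in 1 shKLF5 library. It had 1040 and 2310 counts in shKLF5, against 951 in scramble, or 29 and 66.4 CPM, against 35.8. The log2 fold change was 0.42 (SE 0.52, 95% CI -0.79 to 1.62), and -0.27 without library 2. Of its 2 listed transcripts, FGF2-202 had 221 and 816 counts in shKLF5, against 101 in scramble, and FGF2-201 had 819 and 1494, against 850. The exons of FGF2 share 804 bases (11.9% of its exon bases) with NUDT6, a gene on the opposite strand. NUDT6 had 318 and 481 counts in shKLF5, against 278 in scramble. The use of strand is not given in the sources used here, so reads of the pair cannot be told apart in the shared stretch.

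FGF19 (ENSG00000162344; chromosome 11, 69698232 to 69704642), an endocrine FGF of the gut and liver axis, had the widest gap between the shKLF5 libraries among the 9. It had 10 and 308 counts in shKLF5 libraries 1 and 2, against 31 in scramble, or 0.279 and 8.86 CPM, against 1.17. Library 1 lay under scramble and library 2 was 7.60-fold above it. The exact Poisson intervals were 4.80 to 18.4, 275 to 344 and 21.1 to 44.0 counts. The log2 fold change of 1.97 (SE 1.51, 95% CI -1.54 to 5.47) rests on library 2 alone, and without it the value was -1.82.

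PDGFA (ENSG00000197461; chromosome 7, 497258 to 520296), whose product pairs with itself or with PDGFB, had 1710 and 1117 counts in shKLF5, against 1864 in scramble. In CPM these were 47.7 and 32.1, against 70.1. Both shKLF5 values lay under scramble on this scale. PDGFA had a log2 fold change of -0.81 (SE 0.39, 95% CI -1.71 to 0.08) and an unadjusted p of 0.0701 and an adjusted p of 0.574 by edgeR's quasi-likelihood test. Under the alternatives adjusted values lay between 0.551 and 0.999. On the scale of log2(TPM + 1), PDGFA in library 1 stood at 0.05. The main transcript PDGFA-203 had 1253 and 812 counts in shKLF5, against 1406 in scramble, and PDGFA-201 had 244 and 128, against 265.

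PDGFB (ENSG00000100311; chromosome 22, 39223359 to 39244751), a ligand of both PDGF receptors, had 1458 and 556 counts in shKLF5, against 677 in scramble. In CPM these were 40.7 and 16.0, against 25.5. The scramble value lay between the shKLF5 values. PDGFB had a log2 fold change of 0.15 (SE 0.56, 95% CI -1.14 to 1.45). PDGFC (ENSG00000145431; chromosome 4, 156760454 to 156971394), a ligand activated outside the cell by proteolysis, had 1878 and 1667 counts in shKLF5, against 1354 in scramble. In CPM it had 52.4 and 47.9, against 50.9, the narrowest range of the 9. Its log2 fold change was -0.02 (SE 0.36, 95% CI -0.85 to 0.81). Within PDGFC the coding transcript PDGFC-203 had 563 and 461 counts in shKLF5, against 241 in scramble, while PDGFC-201, annotated as a target of nonsense-mediated decay, had 1214 and 1091, against 1012.

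**Figure D2:**
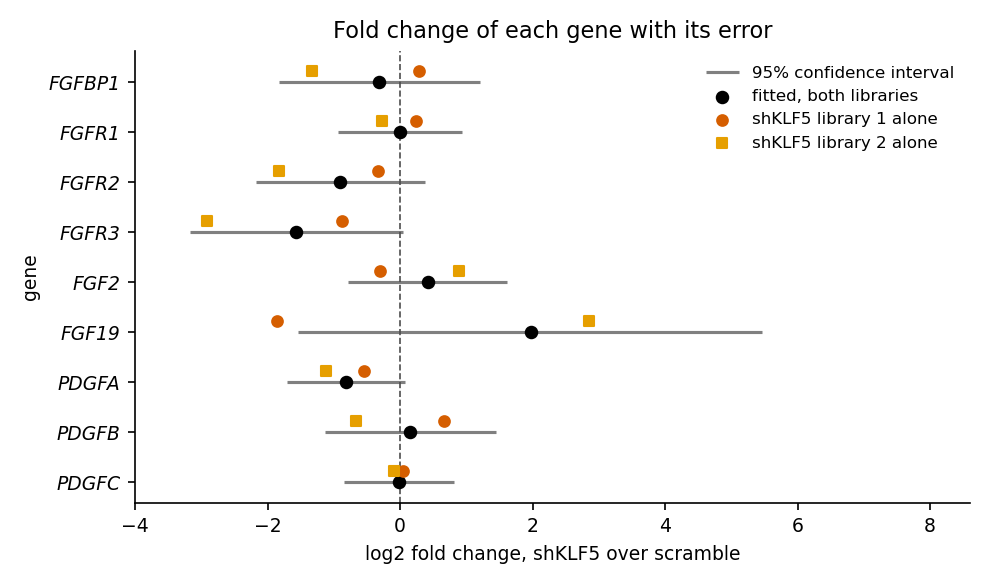
Log2 fold change of shKLF5 over scramble for each gene: black points are the edgeR fit over both libraries with 95% CIs, and coloured points are each shKLF5 library alone. Each interval crosses 0, and FGF19 has the library points farthest apart, at -1.85 and 2.86.

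The spread between the shKLF5 libraries, which uses no scramble value, was wide among these genes. Library 2 differed from library 1 by more than 1 on the log2 scale in 6 of the 9 genes, with a median absolute difference of 1.34. Of all genes tested 15.8% differed by that much, with a median of 0.41, and of the 11017 genes whose CPM averaged 5 or more the share was 9.46%. The 6 were FGF19 (4.71), FGFR3 (-2.05), FGFBP1 (-1.62), FGFR2 (-1.48), PDGFB (-1.34) and FGF2 (1.19), given as library 2 minus library 1. PDGFA (-0.57), FGFR1 (-0.51) and PDGFC (-0.13) differed less. In 7 of the 9 library 2 was the lower, and the exceptions were the ligands FGF2 and FGF19. Of all genes tested 10256 of 20629 were lower in library 2, and of those whose CPM averaged 5 or more 5796 of 11017. The circuit factors TP63 and SOX2 were also lower in library 2 than in library 1, by 1.23 and 1.81 on the log2 scale, and KLF5 differed by 0.24.

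**Figure D3:**
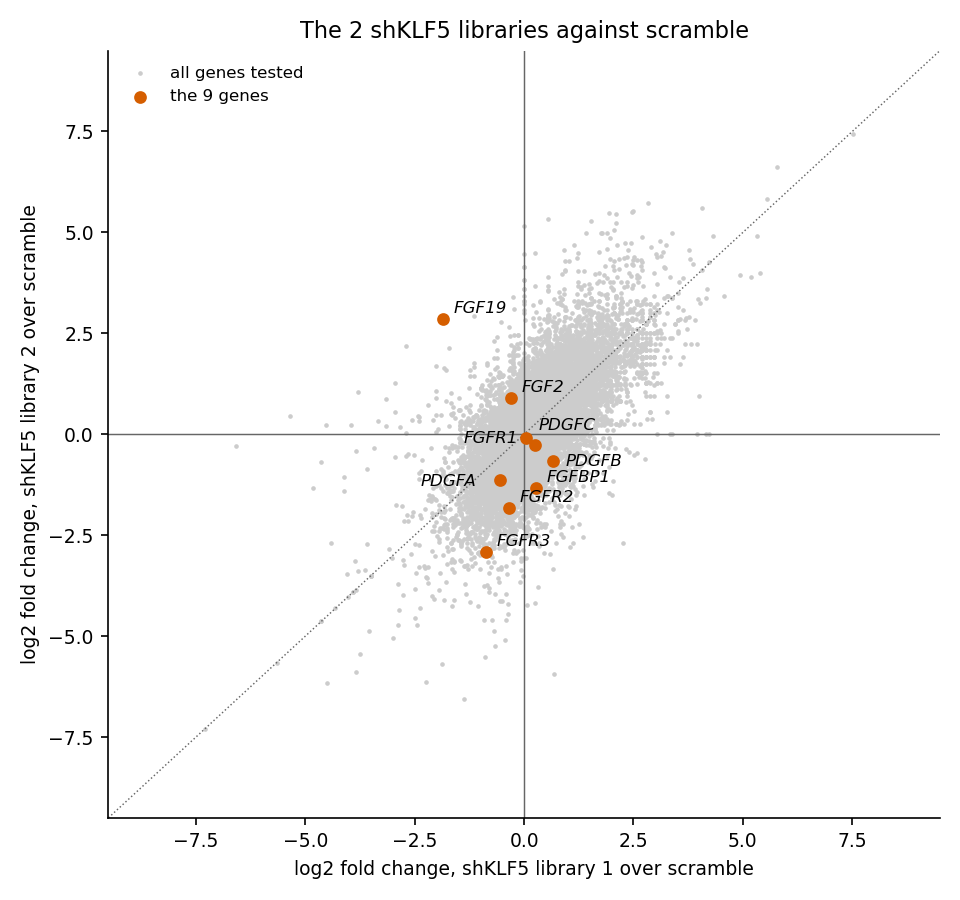
Log2 fold change over scramble in shKLF5 library 1 (horizontal) and library 2 (vertical) for all 20629 genes tested (grey) and the 9 genes (orange), with the line of equal values dotted. Both axes share the scramble library; FGF19 lies in the upper left, and FGFR2, FGFR3 and PDGFA in the lower left.

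The protein-coding genes nearest to FGFR3 in this pattern, by Euclidean distance between the pairs of library fold changes over 3 libraries, were NES, HS3ST3B1 and CPLANE1 among 10375 candidates. NES, an intermediate filament gene, had 393 and 88 counts in shKLF5, against 509 in scramble (distance 0.0809). HS3ST3B1, a heparan sulphate sulfotransferase, had 1140 and 250, against 1456 (distance 0.0916). CPLANE1, a ciliogenesis gene, had 1689 and 399, against 2195 (distance 0.106). None of the 9 was higher in both libraries, so no such search was made on that side.

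The estimated transcript values were grouped by receptor form. Most FGFR2 coding TPM in TE5 lay in transcripts with the IIIc exon, the form typical of mesenchymal cells. IIIc transcripts made up 80.0% and 92.6% of the TPM of FGFR2 coding transcripts in shKLF5 libraries 1 and 2, against 94.2% in scramble, and IIIb transcripts 6.22% and 4.29%, against 1.96%. In TPM, IIIb stood at 1.53 and 0.348, against 0.412, and IIIc at 19.7 and 7.52, against 19.8. Of the counts given to either form, IIIb took 130 of the shKLF5 library 1 counts (5.96%, exact Clopper-Pearson 95% interval 5.01 to 7.04), 31 in shKLF5 library 2 (3.54%, 2.42 to 4.99) and 36 in scramble (1.58%, 1.11 to 2.17). The share was thus higher by value in both shKLF5 libraries, although the IIIb count of library 2 (31) lay under that of scramble (36). FGFR2-208 (IIIb) had 42 and 22 counts in shKLF5, against 36 in scramble. The IIIb transcripts FGFR2-211 (35 and 0) and FGFR2-215 (54 and 8) were at 0 in scramble. These intervals cover counting error, and neither the spread between cultures nor the error of dividing reads among transcripts. They hence cannot tell whether the groups differ. The leading transcript FGFR2-206 (IIIc) had 1317 and 576 counts in shKLF5, against 1721 in scramble. Its log2 fold change was -1.22 (SE 0.57), and the adjusted p was 0.979 over 73052 transcripts by edgeR's quasi-likelihood test.

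FGFR1 had a larger IIIb share by value in both shKLF5 libraries. Its IIIc transcripts held 74.1% and 52.2% of coding TPM in shKLF5, against 54.4% in scramble, and its IIIb transcripts 25.9% and 41.8%, against 8.66%. Taken from counts, the IIIc share was 82% and 66.8%, against 86.3%, so that library 1 lay above scramble in TPM and under it in counts. Coding transcripts with neither exon held 0 and 0.386 TPM in shKLF5, against 3.22 in scramble. Among them FGFR1-229 and FGFR1-234 had 18 counts each in scramble, or 1.16 and 1.86 TPM, and 0 in both shKLF5 libraries. The IIIb share from counts was 18% and 32.7%, against 8.77%. FGFR1-207, the one listed coding transcript that carries the IIIb exon (GRCh38 chromosome 8, 38423025 to 38423175) alone, had 188 and 232 counts in shKLF5, against 65 in scramble, and both shKLF5 values lay above scramble. Its log2 fold change was 1.32 (SE 0.56), with an unadjusted p of 0.0581 and an adjusted p of 0.972 by edgeR's test. Of the IIIb and IIIc counts, IIIb took 18% (15.7 to 20.5) and 32.9% (29.4 to 36.5) in shKLF5, against 9.18% (7.16 to 11.6) in scramble. Other FGFR1 transcripts, whose reads are divided by estimate, differed without a common direction: FGFR1-201 had 267 and 14 counts in shKLF5, against 0 in scramble, and FGFR1-204 had 109 and 182, against 311.

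FGFR3 had little coding TPM, 1.09 and 0.755 in shKLF5, against 2.10 in scramble. FGFR3-201, annotated as a target of nonsense-mediated decay and carrying both exons, had 525 and 48 counts in shKLF5, against 635 in scramble. The IIIb transcript FGFR3-202 had 70 and 74 counts, against 117, and the IIIc transcript FGFR3-208 had 54 and 0, against 78. FGFR3-202 thus stood at nearly the same count in both shKLF5 libraries, while FGFR3-201 and FGFR3-208 were far lower in library 2. A count of 0 allows up to 3 counts by counting error. FGFR3-203, which carries neither exon, had 7 and 19 counts, against 62.

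Over the 9 genes, 95 transcripts were listed and 54 passed the filter. Of these 26 were lower in both shKLF5 libraries and 16 higher in both, while over all transcripts tested 32.4% were lower and 37.0% higher in both. An unadjusted p under 0.05 was reached by 6 of the 54, against 5.19% of all transcripts, and an adjusted p under 0.05 by 0, as for all transcripts (0%). Of the 6, 4 were FGFR1 transcripts, which share much sequence, so their single values are uncertain.

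**Figure D4:**
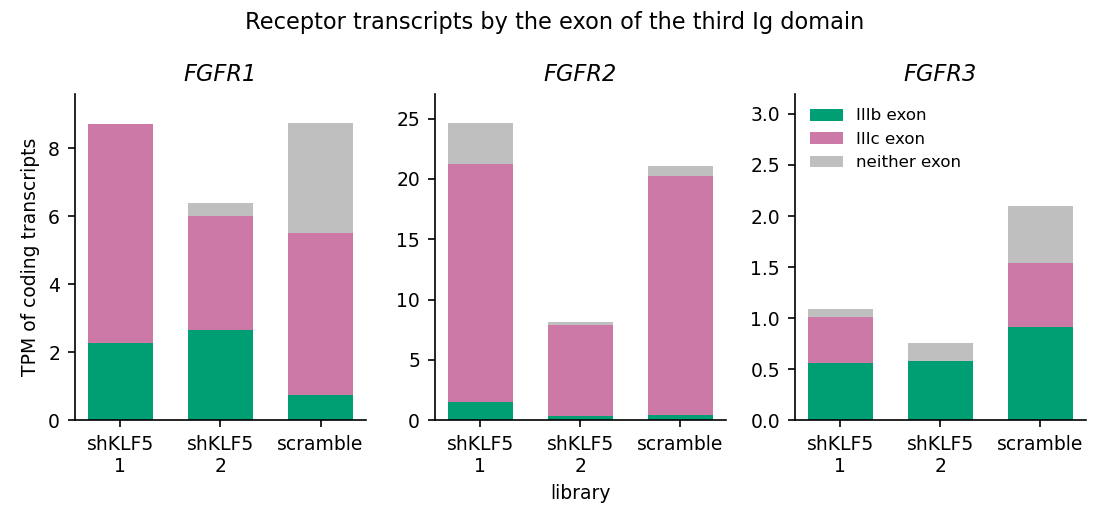
TPM of coding transcripts of FGFR1, FGFR2 and FGFR3 in each library, stacked by whether the annotated transcript carries the IIIb exon, the IIIc exon or neither (each panel has its own axis from 0). FGFR2 is mostly IIIc in all 3 libraries, and the IIIb part of FGFR1 is 2.26 and 2.67 TPM in shKLF5, against 0.756 in scramble.

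Splicing regulators of FGFR2 were set beside these shares. ESRP1 and ESRP2 are epithelial splicing factors known to favour IIIb exons. ESRP1 had 44 and 292 counts in shKLF5, against 18 in scramble, and ESRP2 had 59 and 92, against 22. Both were higher by value in both shKLF5 libraries, with log2 fold changes of 2.82 (SE 1.16) and 1.37 (SE 0.67), ESRP1 chiefly in library 2. Over 8 alternatives the ESRP1 value ran between 1.27 and 3.25. The IIIb share of coding TPM was the higher in library 2 for FGFR1 (25.9% and 41.8%, against 8.66% in scramble) and FGFR3 (52% and 76.8%, against 43.6%). For FGFR2 it was the higher in library 1 (6.22% and 4.29%, against 1.96%). In TPM, FGFR3 IIIb stood at 0.565 and 0.58, under 0.916 in scramble, while FGFR3 IIIc had 54 and 0 counts, against 78. Of its IIIb and IIIc counts, IIIb took 56.5% in library 1, under 60% in scramble. The part of ESRP1 and ESRP2 in these shares was not tested. HNRNPM, an RNA-binding splicing factor, stood at -0.83 (SE 0.34) and MBNL1 at -0.69 (SE 0.38). Of all genes tested 36.5% were lower and 37.9% higher in both shKLF5 libraries, which also stands beside the counts of the lists below. Of the 10 regulators 7 were lower and 2 higher in libraries 1 and 2 alike. Their median log2 fold change was -0.41, against 0.04 over all genes. That median was 0.02 with library size alone, where the median of all genes was 0.47. With library size alone 2 regulators were lower and 5 higher in both libraries, and on log2(TPM + 1) 1 was lower and 5 higher.

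Among other FGF receptors and co-receptors, FGFR4, the receptor of FGF19, was lower in both shKLF5 libraries. It had 78 and 91 counts, against 188 in scramble, a log2 fold change of -1.56 (SE 0.49), an unadjusted p of 0.0135 and an adjusted p of 0.474 by edgeR's test. Over 8 alternatives its log2 fold change lay between -1.60 and -0.62. FGFRL1, a receptor without a kinase domain, stood at -0.75 (SE 0.36). KLB, the co-receptor that FGF19 needs, had 20 and 28 counts, against 9, and KL, the co-receptor of FGF23, did not pass the filter. Of the 3 tested genes of this list 2 were lower and 1 was higher in libraries 1 and 2 alike.

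Of 20 other FGF ligands, 12 passed the filter, 6 of them higher and 3 lower in libraries 1 and 2 alike (median 0.38). None had more than 307 counts in a library. FGF21, a stress-induced hormone, had 42 and 131 counts in shKLF5, against 14 in scramble, and a log2 fold change of 2.22 (SE 0.90), which ran between 1.25 and 2.64 over 8 alternatives. FGF10 had 60 and 24, against 9 (1.79, SE 0.86), FGF17 had 21 and 14, against 4 (1.69, SE 0.88), and FGF23 had 208 and 165, against 243 (-0.79, SE 0.46). An unadjusted p under 0.05 was reached by 1, FGF21, against 5.68% of all genes in that direction.

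The lists of FGF carriers with heparan sulphate proteoglycans and of heparan sulphate enzymes were mostly lower by value after TMM scaling. They mix genes that bind FGFs, free them, or build and cut heparan sulphate, so they do not tell how much FGF is held. Of 12 tested carriers and heparan sulphate proteoglycans, 9 were lower and 1 was higher in libraries 1 and 2 alike (median -0.60). Of 15 tested heparan sulphate enzymes, 11 were lower and 1 was higher (median -0.71). Unadjusted p under 0.05 on the lower side was reached by 4 and 2 of them, against 3.5% of all genes, and an adjusted p under 0.05 by 0. Since the lists were chosen with earlier results known, that comparison is no test of them. The medians stayed negative with library size alone (-0.17 and -0.28), but 6 and 7 genes were then lower in both. SDC1, the syndecan of squamous epithelia, had 2519 and 1710 counts in shKLF5, against 4302 in scramble (-1.44, SE 0.37). GPC3 (-1.70, SE 0.49), GPC1 (-1.13, SE 0.39) and GPC2 (-1.13, SE 0.48) are glypicans, and GPC1 had 16343 and 10018 counts, against 21651. HPSE, the heparanase that cuts heparan sulphate, had 394 and 283, against 817 (-1.68, SE 0.41). HS6ST2 stood at -1.04 (SE 0.40), HS3ST3B1 at -1.49 (SE 0.70) and EXT2, of the chain polymerase, at -0.90 (SE 0.40).

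The receptor adaptors had a median log2 fold change of -0.14 over 11 genes, of which 5 were lower and 1 was higher in libraries 1 and 2 alike. GAB1 stood at -0.63 (SE 0.44), SOS2 at 0.39 (SE 0.41), PLCG1 at -0.34 (SE 0.36) and PTPN11 at -0.33 (SE 0.38). With library size alone the median turned to 0.29. Feedback inhibitors and ETV factors, which FGF signalling through ERK is known to induce, had the highest median of the 10 pathway lists, 0.94 over 12 genes, 10 of them higher in both libraries and 0 lower in both. SPRY4 (2.21, SE 0.46), DUSP6 (2.32, SE 0.53), SPRY2 (1.62, SE 0.51) and ETV5 (1.13, SE 0.36) led by p, and 5 of 12 had an unadjusted p under 0.05 with edgeR, against 5.68% of all genes on that side. With DESeq2 the adjusted p was 0.0122 for SPRY4 and 0.022 for DUSP6, and with edgeR's quasi-likelihood test 0.359 and 0.419. These genes also respond to other receptors than those of FGFs. Their list too was chosen with earlier results of these data known, so its share beside that of all genes is no test.

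The receptors for the PDGF ligands had few counts. PDGFRA had 14 and 9 counts in shKLF5, against 2 in scramble, and PDGFRB had 39 and 35, against 3, with a log2 fold change of 3.17 (SE 0.88) that rests on those 3 scramble counts and ran between 0.45 and 3.59 over 8 alternatives. Of 11 tested genes of the PDGF and VEGF family 5 were higher and 1 was lower in libraries 1 and 2 alike (median 0.39). NRP1, a co-receptor, stood at -0.75 (SE 0.38), and FLT4 at 0.74 (SE 0.63). Among proteases that activate PDGFs, ST14, the epithelial protease matriptase, stood at -0.79 (SE 0.39), PCSK6 at 1.19 (SE 0.60) and PLAT, which activates PDGFC, at 1.30 (SE 0.83), with 15 and 18 counts, against 5. PLAU had 12 and 13 counts in shKLF5, against 0 in scramble. In libraries 1 and 2 alike 4 of these 7 genes were higher and 2 lower (median 0.70, and 0.07 on length-scaled counts).

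FGF19 lies on chromosome 11 in band q13, a segment often amplified in esophageal squamous carcinoma, so its neighbours there were set beside it. CCND1, which encodes cyclin D1, had 4197 and 5288 counts in shKLF5, against 6500 in scramble (-0.86, SE 0.35, and -0.90 to -0.32 over 8 alternatives), and CTTN, which encodes cortactin, 6362 and 5634, against 5690 (-0.33, SE 0.34). MYEOV had 350 and 236, against 82 (1.42, SE 0.53), and ANO1, a chloride channel, 38 and 0, against 38. FGF4 had 0 counts in each library and FGF3 3 and 0, against 0. In shKLF5 library 2 the highest log2 fold change among the 9 tested neighbours was 1.12, for MYEOV, against 2.86 for FGF19. Of the neighbours 4 were lower and 2 higher in libraries 1 and 2 alike, and the median of -0.12 turned to 0.32 with library size alone.

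**Figure D5:**
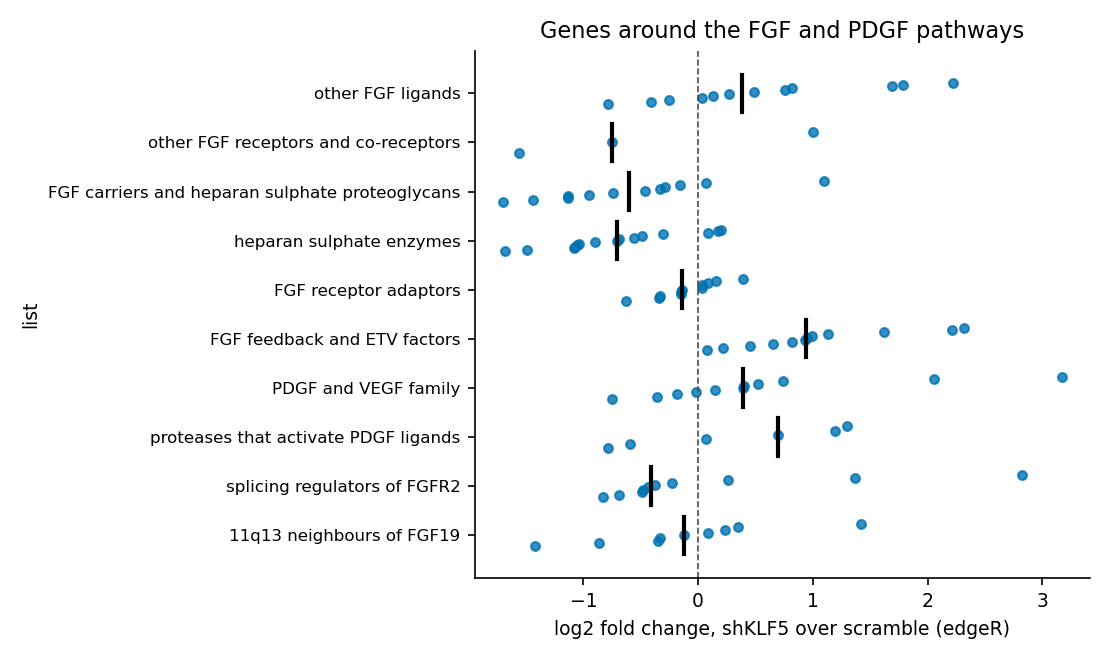
Log2 fold change (edgeR) of shKLF5 over scramble for the tested genes of 10 lists around the FGF and PDGF pathways, 1 point for each gene, with the list median as a black bar. PLAU, at 0 counts in scramble, is left out of the points; the feedback list has its median at 0.94 and both heparan sulphate lists have theirs under 0.

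Promoter windows of 250 bases before the start site were held for 5 of the 9 genes (RefSeq, GRCh38.p14): FGFBP1, FGFR2, FGFR3, FGF2 and PDGFA. Those of FGFBP1, FGFR3 and PDGFA are shown because FGFBP1 and PDGFA are described KLF5 targets and FGFR3 was the most reduced by value. KLF factors bind C-rich boxes, and windows were searched on both strands for CCNCNCCC, for CACCC and for TGANTCA, the AP-1 site. Capitals mark CACCC or its reverse complement in FGFBP1 and CCNCNCCC or its reverse complement in the other windows, where matches may overlap. The windows are chr4:15938741-15938990 (minus strand), chr4:1793043-1793292 (plus strand) and chr7:519847-520096 (minus strand).
FGFBP1: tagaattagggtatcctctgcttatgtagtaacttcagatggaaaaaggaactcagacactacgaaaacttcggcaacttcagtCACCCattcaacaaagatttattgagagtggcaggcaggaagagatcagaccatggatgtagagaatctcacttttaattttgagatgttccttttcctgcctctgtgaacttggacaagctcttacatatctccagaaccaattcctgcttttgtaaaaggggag
FGFR3: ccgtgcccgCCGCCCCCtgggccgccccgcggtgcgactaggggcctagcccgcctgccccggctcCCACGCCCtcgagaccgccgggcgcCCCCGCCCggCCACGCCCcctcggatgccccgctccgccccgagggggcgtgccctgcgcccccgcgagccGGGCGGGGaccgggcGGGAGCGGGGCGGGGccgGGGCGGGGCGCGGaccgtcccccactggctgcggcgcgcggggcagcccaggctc
PDGFA: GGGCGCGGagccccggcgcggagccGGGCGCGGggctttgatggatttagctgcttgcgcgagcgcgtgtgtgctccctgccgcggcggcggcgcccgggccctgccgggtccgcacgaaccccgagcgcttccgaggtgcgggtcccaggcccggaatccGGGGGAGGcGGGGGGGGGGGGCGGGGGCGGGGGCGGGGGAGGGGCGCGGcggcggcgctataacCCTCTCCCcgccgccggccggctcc
FGFBP1 held 1 CACCC, at 166 bases before the start site, and no CCNCNCCC. FGFR3 held 9 CCNCNCCC matches and PDGFA 18, FGFR2 held 1 and FGF2 held 8. CACCC had 0 matches in FGFR2, FGFR3 and PDGFA and 2 in FGF2. The bases G and C made up 40.8% of the FGFBP1 window, against 86.8% in FGFR3, 81.6% in PDGFA, 78.4% in FGFR2 and 75.2% in FGF2. C-rich boxes are found more easily in windows rich in G and C. No window of the 5 held TGANTCA. Over 35116 promoter windows of the same length, 53.4% held CCNCNCCC, 54.7% CACCC and 6.57% TGANTCA. The start site of the PDGFA window lies 437 bases from that of its leading transcript in GENCODE 29, and that of FGFR3 642 bases. A match is a run of letters and not a measured binding site.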

How the data were processed

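RNA was measured in 2 shKLF5 libraries and 1 scramble library of TE5. Each library came as 1 kallisto table from the authors. The submitters' processing notes name kallisto, DESeq2 and hg19 and give no versions. Per the file headers, the authors' estimated counts are raw and per transcript. TPM, also from the authors' tables, divides these by effective length and scales each library to one sum. Lengths entered only the length-scaled alternative. Neither the transcript set nor strand use is stated in the sources used here.

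Of 196354 listed transcripts 181857 (92.6%) matched GENCODE 29 (GRCh38), whose coordinates are printed; the others held 3.05% to 3.42% of counts and were left out. Counts were summed per gene and rounded. Genes were tested with edgeR 4.0.16 (R 4.3.3: filterByExpr, TMM, glmQLFit with legacy = FALSE, Benjamini-Hochberg over 20629 genes), with 1 residual degree of freedom. TMM factors were 1.11, 1.10 and 0.82 for shKLF5 libraries 1 and 2 and scramble. Transcripts were tested the same way. SE is the absolute log2 fold change over the square root of F. Fold changes of single libraries used a prior count of 2. SD is over the 2 shKLF5 libraries. The procedure was tested on simulated data.

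IIIb and IIIc transcripts were told apart by annotated exons. The text names the 9 genes, KLF5 and up to 4 genes of smallest p in each pathway list. It also names the 3 nearest to the most lowered gene in pattern. TP63, SOX2, NUDT6, LETM2, AC087623.1, FGF3 and FGF4 were added after their values were seen, as were single transcripts, VWF, PECAM1 and marker genes at 0. The members and lists were chosen with earlier results of these data known. The alternatives tried were DESeq2 1.42.0, median-ratio size factors, scaling by library size alone, no filter, length-scaled TPM, the legacy fit, limma 3.58.1 on log2(TPM + 1) and log2(TPM + 0.1), and each shKLF5 library left out. One exon sequence is not reported here.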

Additional observations from a re-analysis of the deposited data

How the results depend on the processing

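FGFR2, FGFR3 and PDGFA kept a negative log2 fold change under all 10 alternatives, and 77 of the 90 recomputed values of the 9 genes kept their sign. No gene of the 9 passed the adjusted threshold under any of the 8 alternatives with a test. With library size alone the log2 fold change turned to 0.12 for FGFBP1 and 0.41 for PDGFC, where the median of all genes was 0.47. PDGFC also turned to 0.30 and 0.31 by limma on log2(TPM + 1) and log2(TPM + 0.1). FGFR1 turned to -0.03 by DESeq2, -0.0042 with median-ratio size factors and -0.04 with no filter. Without shKLF5 replicate 1 or 2, which leaves no test, values ran from -0.27 to 0.27 for FGFR1, -0.67 to 0.70 for PDGFB, -1.33 to 0.31 for FGFBP1, -0.27 to 0.89 for FGF2, -1.82 to 2.86 for FGF19 and -0.09 to 0.07 for PDGFC. Of the 9 genes, 7 and 5 were lower, and 2 and 4 higher, without replicate 1 and without replicate 2. The 3 lower in both became 1 on both TPM scales, and the 0 higher in both became 3 there and with library size alone. Over all genes, adjusted calls were 0 in the main test, 118 by DESeq2 and 21 by the legacy fit, and unadjusted calls were 1893, against 1150 by DESeq2 and 2852 with library size alone. The cause was not tested. The mean isoform shares of the shKLF5 libraries moved by less than 1 SD when taken from counts, while the FGFR1 IIIc share in scramble was 86.3% from counts and 54.4% from TPM. No paired analysis was possible because scramble has 1 library. Total counts were alike in the 3 libraries, but 16920 genes reached 10 counts in scramble, against 19304 and 19422 in shKLF5. The number of libraries limits precision: the SE of the 9 genes lay between 0.36 and 1.51.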
